A study of Callithrix jacchus with 4 samples.

Results

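The 7 genes described here belong to the transforming growth factor beta (TGF-beta) pathway and were chosen by name from the 16383 genes listed in both deposited tables. They are the ligands TGFB1 and TGFB2, the receptors TGFBR1, TGFBR2 and TGFBR3, and the intracellular proteins SMAD3 and SMAD7. Each gene was read in 7 annotated cell types, which gave 49 pairs of gene and cell type.

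TGF-beta ligands are secreted in a latent form and act once they are released from it. The active ligand binds the type II receptor TGFBR2, which recruits and phosphorylates the type I receptor TGFBR1, and TGFBR1 in turn phosphorylates SMAD2 and SMAD3, which enter the nucleus with SMAD4 and act on target genes. TGFBR3, or betaglycan, is a co-receptor that presents ligand to TGFBR2 and matters most for TGF-beta 2, while SMAD7 is an inhibitory SMAD that the pathway itself induces. In the brain the pathway is known for keeping microglia in their homeostatic state, for its part in scar formation by astrocytes and fibroblasts, and for its role in the vessel wall.

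Nuclei came from the primary visual cortex (V1) of adult common marmosets and were profiled by single-nuclei RNA sequencing (snRNAseq) of transcript 3′ ends. The injured cohort was 3 animals, each 1 library, with V1 taken 7 days after an injection of endothelin-1, which constricts vessels and so makes an ischemic stroke. The dissected tissue held the ischemic core and the penumbra. The control cohort was V1 of 3 uninjured animals pooled in 1 library, so the control has no replicate and its animals cannot be told apart. The cohorts also differed in the way nuclei were isolated, in the sequencing facility and instrument, in the removal of doublets and in depth, and none of these can be told apart from the injury.

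The files held 29537 nuclei of the injured cohort and 8610 of the control. By class, median depth was 1813 (Endo) to 5949 (ExN) unique molecular identifiers (UMIs) per nucleus after injury and 793 (Microglia) to 2678 (ExN) in the control. The annotated classes were astrocytes (Astro), endothelial cells (Endo), excitatory and inhibitory neurons (ExN and InN), Microglia, oligodendrocytes (Oligo) and oligodendrocyte precursor cells (OPC). Control nuclei were few in some classes, with 129 Microglia, 171 OPC and 181 Endo nuclei. The marker genes of each class were highest in their own class, other than FLT1 in the control Endo class and GPR34 in the injured Microglia class, and C1QB, at 0 in the control Microglia class. Libraries shared 15 to 27 cell barcodes with each other.

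The Endo and the Microglia class held different nuclei in the injured and the control cohort, and this bears on several values below. The control Endo class was 85.6% a cluster with high LAMA2, DCN and C7, genes of fibroblasts, and 14.4% a cluster with high FLT1, an endothelial receptor. The injured Endo class was 37.1% a cluster with high FLT1 and RGS5, 45.1% a shallow cluster with SYT1, a gene of neurons, at 2763 UMIs per 1000000 (CPM), 15.9% a LAMA2 cluster and 1.96% a second FLT1 cluster. Summed over the endothelial markers, the control Endo class stood at 848 CPM against 3404 to 4096 CPM in the injured libraries, and summed over the fibroblast markers at 5189 CPM against 1223 to 2175 CPM. The control Microglia class was a single cluster with GPR34 at 289 CPM and CX3CR1 at 233 CPM, genes of homeostatic microglia, but also with MRC1 at 297 CPM, LYVE1 at 241 CPM and F13A1 at 410 CPM, genes of macrophages. The injured Microglia class was 47.8% a cluster with CD163 at 736 CPM and MRC1 at 370 CPM, 28.7% a cluster with the T cell gene CD3E at 96.3 CPM, and 23.3% a cluster with the highest P2RY12 and GPR34 of the larger injured clusters. F13A1 was at 1759 CPM in the CD163 cluster and 1296 CPM in the P2RY12 cluster, so this gene did not set them apart.

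The levels of the ligands in the injured libraries are given first, as CPM of all UMIs of a class in a library. TGFB1 was highest in Microglia, at 152, 156 and 154 CPM in injured replicates 1, 2 and 3. It was 60.1 ± 11.5 CPM in Endo and 52.6 ± 8.63 CPM in Astro (mean ± SD, n = 3), whose ranges overlapped. In Oligo, ExN, OPC and InN it lay between 24.5 and 30.5 CPM on average, with neighbours in that order overlapping, and the highest class mean was 6.28 times the lowest. TGFB1 UMIs were thus found in every class, with the maximum in Microglia. The 5 Microglia markers summed to 145 to 249 CPM in injured ExN and 61.5 CPM in control ExN, and the part of free RNA in the low TGFB1 levels of the other classes was not tested.

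TGFB2 had another order. It was highest in Astro, at 165, 241 and 289 CPM in the 3 injured libraries, and next in Endo, at 114, 149 and 258 CPM, and these ranges overlapped. Microglia followed with 96.7 ± 12.03 CPM, InN with 60.4 ± 7.54 CPM and OPC with 30.7 ± 3.65 CPM, with no overlap between neighbours. ExN was lowest at 10.02 ± 1.40 CPM, with a range that overlapped that of Oligo (16.7 ± 5.10 CPM), so that the class means spanned 23.1-fold. Within InN the gene was uneven. It stood at 107, 162 and 178 CPM in the injured libraries in the cluster with the most VIP, a marker of a class of interneurons, and at 32.3 to 51.3 CPM in the largest InN cluster, which held more LHX6. The control InN class had 2 clusters with TGFB2 at 138 and 134 CPM. VIP was at 41.5 and 0 CPM in them, and LHX6 at 2.18 and 38.2 CPM. Its other 2 clusters had TGFB2 at 43.3 and 20.4 CPM, VIP at 0, and LHX6 at 157 and 151 CPM.

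**Figure D1:**
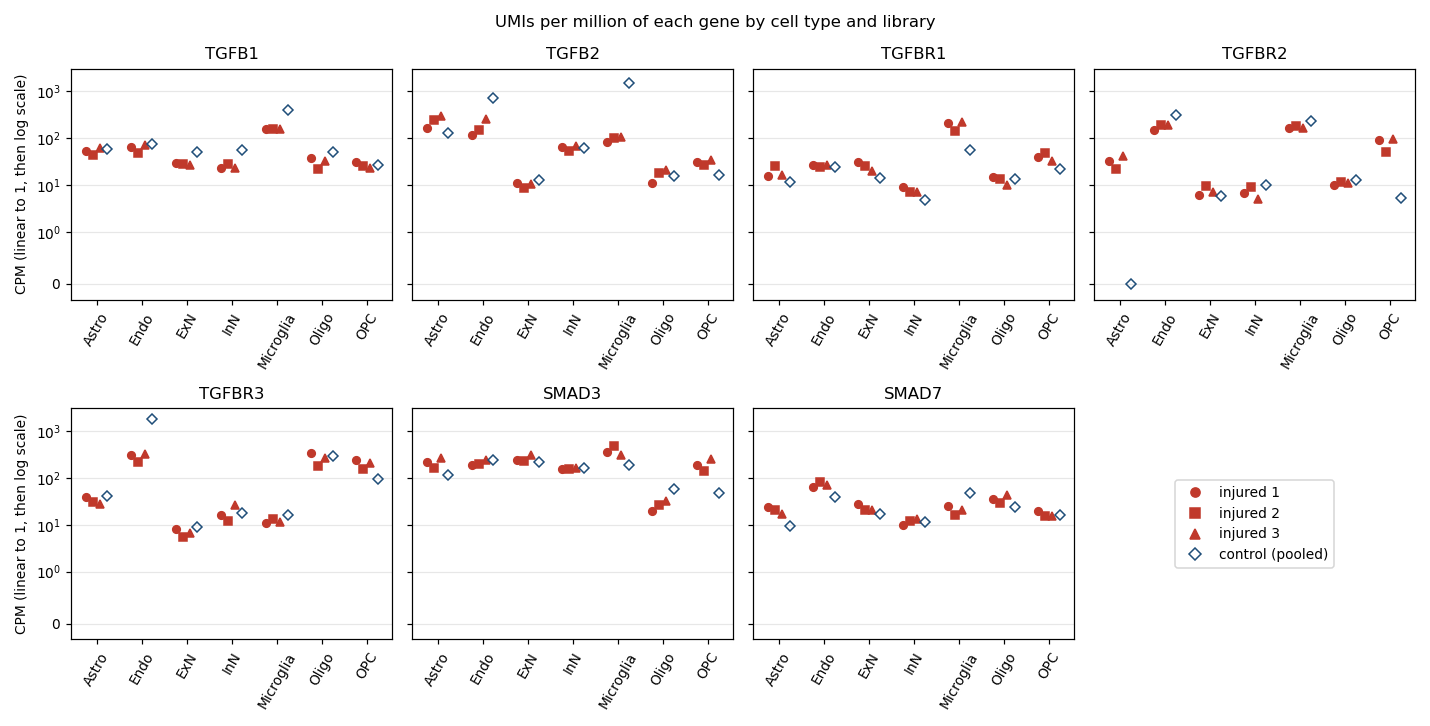
CPM of each gene (vertical axis, linear up to 1 and logarithmic above) in each annotated cell type (horizontal axis), with filled red symbols for the 3 injured libraries and an open blue diamond for the pooled control. TGFB1 and TGFBR1 are highest in Microglia after injury, TGFBR2 in Endo and Microglia, and the control diamond lies far above the injured libraries for TGFB2 in Microglia (1478 CPM) and TGFBR3 in Endo (1759 CPM).

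Among the receptors, TGFBR1, the kinase that phosphorylates SMADs, was highest in the annotated Microglia class of the injured libraries. Its level there was 212, 138 and 223 CPM in injured replicates 1, 2 and 3. The next class, OPC, had 39.1 ± 7.74 CPM, and InN was lowest at 7.78 ± 1.24 CPM. The class means spanned 24.5-fold, and the ranges of Endo, ExN and Astro overlapped between neighbours.

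TGFBR2, the receptor that binds the ligand first, was shared by 2 classes. Endo held 145, 185 and 185 CPM and Microglia 164, 183 and 159 CPM, with overlapping ranges. OPC followed at 78.0 ± 24.2 CPM and Astro at 31.5 ± 9.61 CPM, and both lay clear of their neighbours. The neurons were lowest, ExN at 7.57 ± 1.72 CPM and InN at 6.85 ± 1.92 CPM. Neurons therefore held few TGFBR2 transcripts, while TGFBR1 in ExN stood at 25.1 ± 5.12 CPM.

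TGFBR3, the co-receptor, was high in other classes. Its level was 302, 217 and 328 CPM in Endo, 343, 183 and 271 CPM in Oligo, and 244, 157 and 204 CPM in OPC, and these ranges overlapped. Astro was far lower at 32.4 ± 6.15 CPM, Microglia had 11.8 ± 1.18 CPM and ExN 6.74 ± 1.20 CPM. The span of 41.9-fold over classes was the widest of the 7 genes, and Microglia, which led for TGFBR1, were among the lowest classes for TGFBR3.

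SMAD3, the effector, was high in all classes other than Oligo. Microglia stood highest at 350, 471 and 312 CPM, clear of ExN at 258 ± 43.0 CPM. ExN, Astro, Endo, OPC and InN formed a series from 258 to 158 CPM whose neighbours overlapped. Oligo lay apart at 26.3 ± 6.71 CPM.

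SMAD7, the inhibitor, was highest in Endo at 62.9, 80.6 and 70.1 CPM. Oligo followed at 35.9 ± 7.11 CPM, ExN, Microglia and Astro overlapped between 20.2 and 23.0 CPM on average, and InN was lowest at 11.8 ± 1.69 CPM. Its span of 6.05-fold was the narrowest of the set.

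When each class was set against the mean of the other 6 in the injured libraries, 13 pairs passed (adjusted p below 0.01 and a log2 difference above 1). Nuclei had been grouped on expression that includes these genes, so the counts describe the labelled classes and are no independent evidence of them. Microglia passed for 5 of 7 genes, where 15.6% of all genes did. TGFBR1 stood 3.31 ± 0.113 above the other classes there (log2 difference ± SE), TGFBR2 2.73 ± 0.133, TGFB1 2.14 ± 0.0955, SMAD3 1.40 ± 0.125 and TGFB2 1.01 ± 0.130. TGFB2 in Microglia lay on the limit and fell below it without injured replicate 1 (0.998) or replicate 2 (0.911). Endo passed for 4 of 7 genes (18.1% of all genes), namely TGFBR3, TGFBR2, TGFB2 and SMAD7, with log2 differences of 2.79 ± 0.111, 2.64 ± 0.140, 1.82 ± 0.128 and 1.69 ± 0.115. OPC passed for TGFBR3 and TGFBR2 (9.72% of all genes), Oligo for TGFBR3 (9.0%) and Astro for TGFB2 (11.5%). The 13 pairs held none of ExN or InN. The share of all genes that passed was not counted for these classes, so nothing is drawn from this.

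The injured libraries were then compared with the control, class by class. Called means an adjusted p below 0.01 over all genes tested in edgeR's quasi-likelihood test, a natural-log fold change beyond 0.25 in either direction and a UMI in at least 10% of nuclei of either cohort. With all 3 injured libraries in the fit, 3 of the 49 pairs were called, all lower after injury. These were TGFB1 in ExN, TGFB1 in InN and TGFBR3 in Endo, beside 3.85%, 3.41% and 6.18% of all genes called in those classes. None of the 7 genes was called in Astro, Oligo, OPC or Microglia, where 1.5%, 0.774%, 0.0697% and 0% of genes were. In Microglia 2857 of 13470 genes had an unadjusted p below 0.05, and DESeq2 called 318 genes. Since the control is a single library, the fit assumes that it varies as the injured libraries do. Fits that leave out an injured library rest on fewer animals still and lean more on spread borrowed across genes. A lower adjusted p from them is therefore not read as stronger evidence. Which pairs passed also changed in those fits, and some of the pairs added without injured replicate 2 were higher after injury. Injured and control ranges were apart in 39 of 49 pairs, with all 3 injured libraries above the control in 20 and below it in 19, and the control held fewer than 10 UMIs in 13 pairs. Over all genes tested the ranges were apart in 81.6% of pairs of gene and cell type, with the injured libraries above the control in 38.5% and below it in 43.1%, so that a control outside the injured range was as common among all genes.

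TGFB1 was lower after injury in both classes of neurons. In ExN it was at 29.2, 27.2 and 26.9 CPM in the injured libraries and 51.3 CPM in the control, a log2 fold change of -0.77 ± 0.127 (SE) with an adjusted p of 0.00879. In InN the levels were 22.4, 28.4 and 22.8 CPM against 56.4 CPM in the control, a log2 fold change of -1.08 ± 0.214 and an adjusted p of 0.00993. The injured libraries lay close together and below the control in both classes. Both calls sat near the limit. The ExN call was lost without injured replicate 1 (log2 fold change -0.80, adjusted p 0.0395), and the InN call without replicate 1 (-1.01, 0.0278) or replicate 3 (-1.02, 0.0257).

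TGFB1 was on the same side in Microglia, where it was 152, 156 and 154 CPM against 394 CPM in the control (log2 fold change -1.10 ± 0.168), but the adjusted p was 0.0456. In Astro and OPC the control lay within the injured range, with log2 fold changes of -0.05 ± 0.282 and 0.09 ± 0.546. In Oligo the control level of 49.3 CPM was above the injured range of 21.9 to 36.9 CPM, at an adjusted p of 0.255, and in Endo the control level of 73.5 CPM was above the injured range of 47.2 to 69.2 CPM, at an adjusted p of 0.804.

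TGFB2 had the widest gap of any pair with 10 or more control UMIs. In Microglia it was at 83.5, 99.4 and 107 CPM after injury and at 1478 CPM in the control, where 184 UMIs fell in 129 nuclei. The log2 fold change was -3.68 ± 0.194 and the adjusted p 0.0172, short of the limit. It passed without injured replicate 1 or replicate 2, in fits on fewer animals that are not read as stronger evidence. In Endo the levels were 114, 149 and 258 CPM against 711 CPM, a log2 fold change of -1.89 ± 0.391 with an adjusted p of 0.0118. The Endo pair passed without replicate 2 or replicate 3, with the same limit on such fits. Astro went the other way, at 165, 241 and 289 CPM against 126 CPM, with a log2 fold change of 1.0 ± 0.340 and an adjusted p of 0.0953. TGFB2 was thus below the control in Microglia and Endo and above it in Astro, and edgeR's test as set out above passed in none of the 3 classes. The outcome in Microglia and Endo depended on the test and its settings at similar folds. DESeq2 called both (adjusted p 8.68e-22 in Microglia and 0.000142 in Endo), as did edgeR on nuclei with at most 2500 genes (0.00519 and 0.00118), while library size scaling called Microglia alone (0.00604) and testing without a filter on low counts (0.00618) or after thinning (0.00515) called Endo alone.

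TGFBR3 in Endo was the clearest of the 3 calls. It stood at 302, 217 and 328 CPM after injury and at 1759 CPM in the control, with a log2 fold change of -2.51 ± 0.240 and an adjusted p of 0.000635, and the call held without each injured library in turn. In OPC it was above the control, at 244, 157 and 204 CPM against 96.3 CPM, a log2 fold change of 1.20 ± 0.366 with an adjusted p of 0.141. The OPC pair passed without injured replicate 2, in a fit on fewer animals that is not read as stronger evidence. In Oligo, which held this gene at a similar level, the control's 294 CPM lay within the injured range and the log2 fold change was -0.05 ± 0.311.

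**Figure D2:**
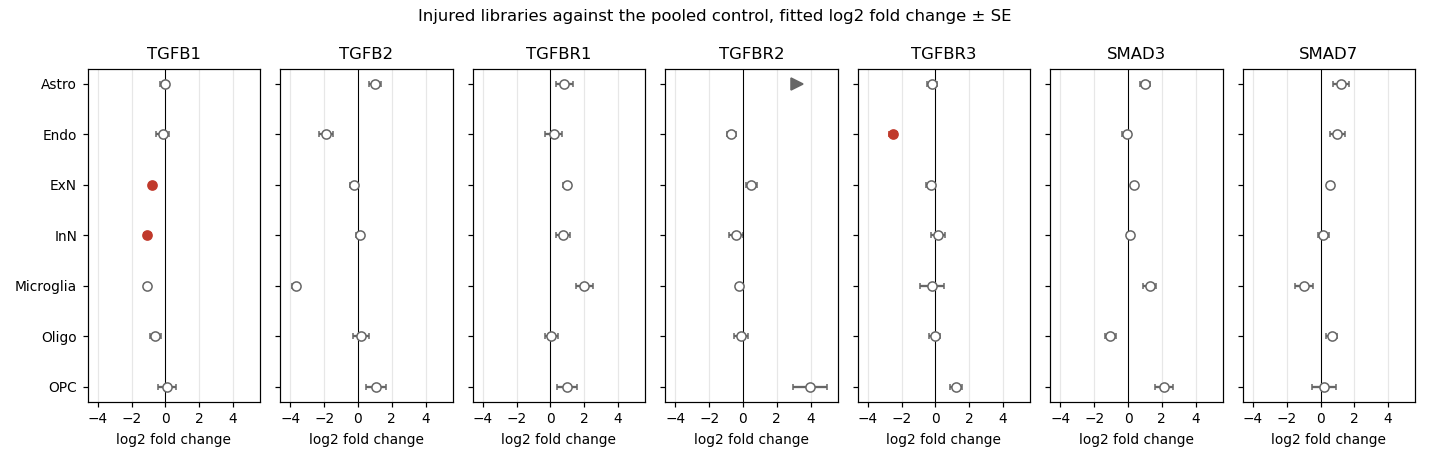
Fitted log2 fold change of the injured libraries against the pooled control (horizontal axis, with SE as bars) for each gene and cell type, with filled red points for called pairs and open points for the others. The 3 red points, TGFB1 in ExN and InN and TGFBR3 in Endo, all lie left of 0. The grey triangle marks a lower bound for TGFBR2 in Astro, where the control held 0 UMIs.

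TGFBR2 was absent or nearly so from the control glia of 2 classes. In Astro the control held 0 UMIs in 594 nuclei, which allows a share of up to 0.505% of nuclei with a UMI if 3 nuclei are taken as the limit and 0.619% as the upper end of the exact 95% interval, while the injured libraries had 32.2, 21.5 and 40.7 CPM. Set against 3 UMIs over the control cohort, the injured level of 32.4 CPM was at least 9.33-fold higher. The adjusted p was 0.0118 and 9.44% of all injured nuclei had a UMI, so the pair missed both limits, and without injured replicate 2 it passed. In OPC the control held 1 UMI and the injured libraries 88.7, 50.2 and 95.04 CPM, a ratio of 14.9 with an exact counting interval of 2.67 to 591, which covers counting error only. The adjusted p there was 0.0987, and the pair passed without replicate 2. Passing in these fits on fewer animals is not read as stronger evidence. Every injured library was above the control in both classes.

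Some markers of other cell types were also higher after injury in these classes. In Astro the 5 Microglia markers summed to 202 to 302 CPM in the injured libraries and 90.2 CPM in the control, where C1QB was at 0. The 5 genes did not share a direction. In the main Astro cluster of each cohort CD74 was at 130 CPM after injury and 0 in the control. C1QB was at 30.3 and 0 CPM there and DOCK8 at 29.6 and 12.2 CPM. P2RY12 (49.2 and 65.8 CPM) and GPR34 (6.35 and 16.8 CPM) were lower after injury. The control Microglia class itself held CD74 at 8.04 CPM and C1QB at 0. The 5 macrophage markers summed to 123 to 151 CPM against 33.5 CPM there, and the endothelial markers, of which 3 of 4 were listed, to 285 to 418 CPM against 113 CPM. In the same clusters VCAN, which OPC also express, was at 87.4 and 1.53 CPM, CD163 at 20.6 and 12.2 CPM, IGFBP7 at 295 and 71.9 CPM and FLT1 at 11.6 and 7.65 CPM. In OPC the Microglia markers summed to 217 to 358 CPM against 128 CPM in the control, where CD74 and C1QB were at 0. In the main OPC clusters CD74 was at 172 CPM and C1QB at 29.1 CPM after injury. DOCK8 was at 35.7 CPM after injury and 10.7 CPM in the control, and P2RY12 at 19.2 and 10.7 CPM. GPR34 alone of the 5 was lower after injury, at 35.2 CPM against 107 CPM in the control. The endothelial markers summed to 55.4 to 81.95 CPM against 26.8 CPM, where FLT1 and IGFBP7 were at 0. The macrophage markers summed to 1006 to 1488 CPM against 1214 CPM in OPC, a list that holds VCAN. For comparison, the Microglia markers summed to 2806 to 3319 CPM in the injured Microglia class. The part of these nuclei or of free RNA in the TGFBR2 values was not tested.

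In Microglia TGFBR2 did not separate the cohorts in the same way as TGFBR1. TGFBR2 was at 164, 183 and 159 CPM after injury and 233 CPM in the control, from 29 UMIs, with a log2 fold change of -0.22 ± 0.223. TGFBR1 was at 212, 138 and 223 CPM against 56.2 CPM, from 7 UMIs, with a log2 fold change of 2.01 ± 0.524 and an adjusted p of 0.107. It passed without injured replicate 2, in a fit on fewer animals that is not read as stronger evidence. TGFBR1 in ExN was at 30.4, 24.8 and 20.2 CPM against 13.9 CPM, with a log2 fold change of 0.96 ± 0.245 and an adjusted p of 0.0340. The ExN pair passed without replicate 3, also a fit on fewer animals, and with DESeq2 (adjusted p 0.00625). Within ExN this gene differed by cluster. It was at 17.1 CPM in the largest injured cluster of 5401 nuclei, 46.1 CPM in the next of 2455 nuclei, which had more CUX1 and GRIN2A, and 3.35 CPM in the next of 521 nuclei. Over all injured clusters it ran from 0 CPM (94 nuclei) to 47.3 CPM (37 nuclei), and over the control clusters from 0.954 to 31.8 CPM.

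SMAD3 was above the control in Astro, OPC and Microglia, and by less in ExN. It was at 214, 165 and 262 CPM against 114 CPM in Astro (log2 fold change 1.01 ± 0.298, adjusted p 0.0654), at 187, 137 and 249 CPM against 48.2 CPM in OPC (2.12 ± 0.524, 0.0932), and at 350, 471 and 312 CPM against 185 CPM in Microglia (1.28 ± 0.383, 0.141). Every injured library exceeded the control in these 3 classes, and no pair passed the limit. Astro and OPC passed without injured replicate 2. That fit rests on fewer animals and leans on spread borrowed across genes, so it is not read as stronger evidence. In Oligo SMAD3 was lower, at 19.3, 26.95 and 32.7 CPM against 57.9 CPM (log2 fold change -1.05 ± 0.323, adjusted p 0.0816). The control Oligo class held a cluster of 68 nuclei with SYT1 at 1964 CPM and SMAD3 at 208 CPM, and its main cluster had SMAD3 at 21.4 CPM. In ExN every injured library was above the control too, at 239, 227 and 307 CPM against 221 CPM (log2 fold change 0.34 ± 0.189). In InN the log2 fold change was 0.09 ± 0.144.

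SMAD7 stood above the control in Astro, Endo, ExN and Oligo in all 3 injured libraries, and none of these pairs passed. The log2 fold changes were 1.22 ± 0.456 in Astro (8 control UMIs), 1.001 ± 0.424 in Endo (8 control UMIs), 0.58 ± 0.199 in ExN and 0.66 ± 0.339 in Oligo, with adjusted p of 0.0772 to 0.229. The Endo class differed in make-up between the cohorts, as given above, and the part of this in the Endo value was not tested. Within the FLT1 clusters SMAD7 was at 91.6, 122 and 101 CPM after injury and 194 CPM in the control, from 4 UMIs (log2 fold change -0.11 ± 0.633). Within the LAMA2 clusters the log2 fold change was 0.96 ± 0.584, also from 4 control UMIs. In Microglia SMAD7 was lower, at 24.9, 16.4 and 20.4 CPM against 48.2 CPM from 6 UMIs (log2 fold change -0.98 ± 0.556).

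The Microglia and Endo values were then read by deposited cluster, since the classes differed in make-up. TGFB2 in the injured Microglia class was highest, among the 3 larger clusters, in the one with the most P2RY12 and GPR34. It was at 253, 352 and 291 CPM there in the 3 injured libraries, against 7.74 to 10.3 CPM in the CD163 cluster and 19.0 to 36.6 CPM in the CD3E cluster. The remaining injured cluster of 21 nuclei had GPR34 at 275 CPM and TGFB2 at 595 CPM. TGFBR1 was at 235, 148 and 243 CPM in the CD163 cluster and 214, 148 and 242 CPM in the P2RY12 cluster, and at 84.0 to 108 CPM in the CD3E cluster. Among the 3 larger clusters, TGFBR2 was lowest in the CD163 cluster, at 111 to 122 CPM, and stood at 241 to 266 CPM in the CD3E cluster and 197 to 301 CPM in the P2RY12 cluster. The ligand TGFB2 therefore separated these clusters most sharply of the 7 genes, and the receptor TGFBR1 was common to the CD163 and P2RY12 clusters.

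With only the clusters highest in GPR34 (1819 injured and 129 control nuclei), a choice made after seeing the data, TGFB2 was 253, 358 and 292 CPM after injury and 1478 CPM in the control. The log2 fold change was -2.11 ± 0.233 and the adjusted p 0.0235, beside 0.00840% of genes called in that comparison. TGFBR1 gave 2.02 ± 0.498 and SMAD3 1.45 ± 0.483, close to their values over the whole class, with adjusted p of 0.102 and 0.166. FLT1, an endothelial gene, was at 571 CPM and LAMA2 at 265 CPM in the control cluster, against 276 and 18.4 CPM in the injured P2RY12 cluster. The other listed endothelial markers, IGFBP7 and SLC2A1, were at 0 in the control cluster. So were the fibroblast markers COL1A1, COL1A2 and LUM, and DCN was at 8.04 CPM. Whether other cells had a part in the TGFB2 value was not tested.

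**Figure D3:**
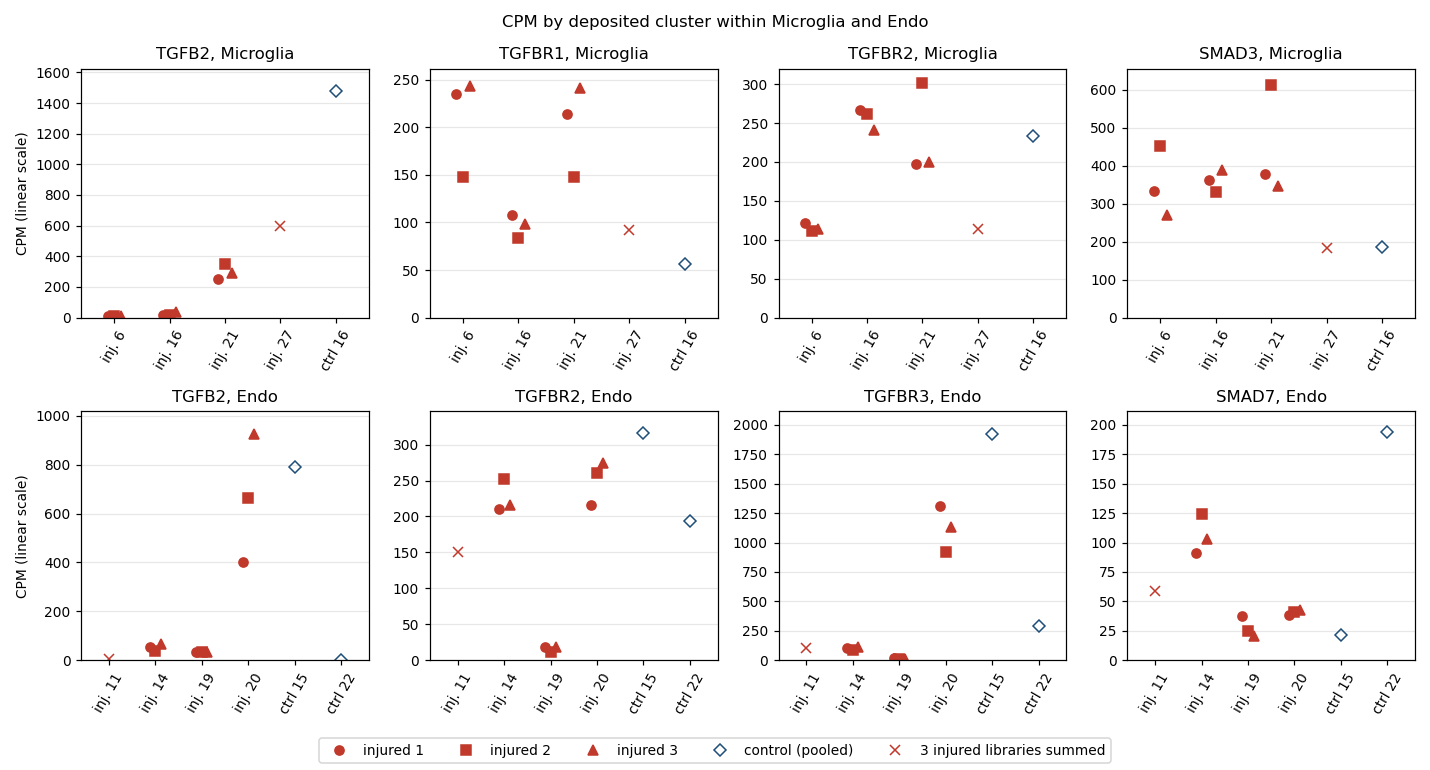
CPM (vertical axis, linear) by deposited cluster (horizontal axis, injured clusters then control clusters, by their deposited numbers) of 4 genes in the Microglia class (top) and 4 in the Endo class (bottom). Points are the 3 injured libraries, crosses small injured clusters summed over libraries, and blue diamonds the control. In Microglia, injured cluster 21 is the P2RY12 cluster and the highest of the 3 larger injured clusters for TGFB2, and in Endo, injured cluster 20 and control cluster 15 are the LAMA2 clusters and hold most TGFB2 and TGFBR3.

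In Endo both TGFB2 and TGFBR3 were genes of the LAMA2 clusters. TGFBR3 was at 1308, 918 and 1134 CPM in the injured LAMA2 cluster and 1924 CPM in the control LAMA2 cluster, but at 90.6 to 113 CPM in the main injured FLT1 cluster and 7.27 to 15.4 CPM in the shallow SYT1 cluster. TGFB2 was at 404, 663 and 927 CPM in the injured LAMA2 cluster and 790 CPM in the control one, and at 37.6 to 66.5 CPM in the main FLT1 cluster. TGFBR2 was spread over both kinds, at 216 to 274 CPM in the LAMA2 cluster and 210 to 252 CPM in the FLT1 cluster, and SMAD7 was highest in the FLT1 cluster.

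Compared within the LAMA2 clusters (705 injured and 155 control nuclei), TGFBR3 had a log2 fold change of -0.73 ± 0.254 and an adjusted p of 0.153, and TGFB2 of -0.19 ± 0.402 and 0.818. Within the FLT1 clusters (1734 injured and 26 control nuclei) TGFBR3 had -0.75 ± 0.510 and 0.619, from 6 control UMIs, and TGFB2 was at 0 UMIs in the control. In these comparisons 0.111% and 0.0267% of genes were called and none of the 7, so that the TGFBR3 call over the Endo class was not kept within either kind of cluster.

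Whether the injury effect of a gene in a class differed from its mean effect in the other 6 classes was tested in a single fit with library as a block. The 1 control library adds no spread to this fit, so its p-values measure the spread between class sums of the 3 injured animals. The injury effect here is the contrast of the cohorts, with their other differences given above. The test passed for 4 pairs (adjusted p below 0.01), 3 in Endo, where 3.38% of all genes passed, and 1 in Microglia, where 2.53% did. TGFB2 in Microglia differed by -3.67 ± 0.310 (adjusted p 1.87e-07) and TGFBR3 in Endo by -2.62 ± 0.299 (1.80e-05). TGFB2 in Endo differed by -1.67 ± 0.329 (0.00273), and by -1.495 with an adjusted p of 0.0347 without injured replicate 2. TGFBR2 in Endo differed by -3.06 ± 0.696 (0.00837). This last value rests on the fitted effects in Astro and OPC, where the control held 0 and 1 UMIs, and with those classes left out it was -0.74 ± 0.269 with an adjusted p of 0.119. It also missed the limit without injured replicate 1 (0.0341) or replicate 3 (0.0166).

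In OPC some of the genes were uneven within the class. Nuclei were divided by whether they held a UMI of GFAP, an intermediate filament gene of astrocytes, which 459 of 1136 injured OPC nuclei did. GFAP was at 0 in the 171 control OPC nuclei. TGFBR2 was at 126, 99.5 and 122 CPM in the nuclei with GFAP and 32.4, 24.0 and 48.8 CPM in those without. TGFBR3 was at 318, 207 and 247 CPM with GFAP and 133, 131 and 129 CPM without, and SMAD3 at 236, 192 and 290 CPM with and 114, 108 and 179 CPM without. Each injured library was higher with GFAP for these 3 genes, which is given without a test because the nuclei of a library are not replicates. SMAD7 was higher with GFAP in each library too, by less, at 19.0 ± 1.45 CPM with and 14.8 ± 3.38 CPM without (n = 3). TGFB1, TGFB2 and TGFBR1 had no common direction over the 3 libraries. The nuclei with GFAP were also deeper, at a median of 4296 to 6800 UMIs against 2733 to 4585 UMIs, and the part of depth, of doublets with astrocytes or of free RNA was not tested. The nuclei without GFAP stood above the control's 5.35 CPM of TGFBR2, which is 1 UMI, and its 48.2 CPM of SMAD3, which is 9 UMIs.

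**Figure D4:**
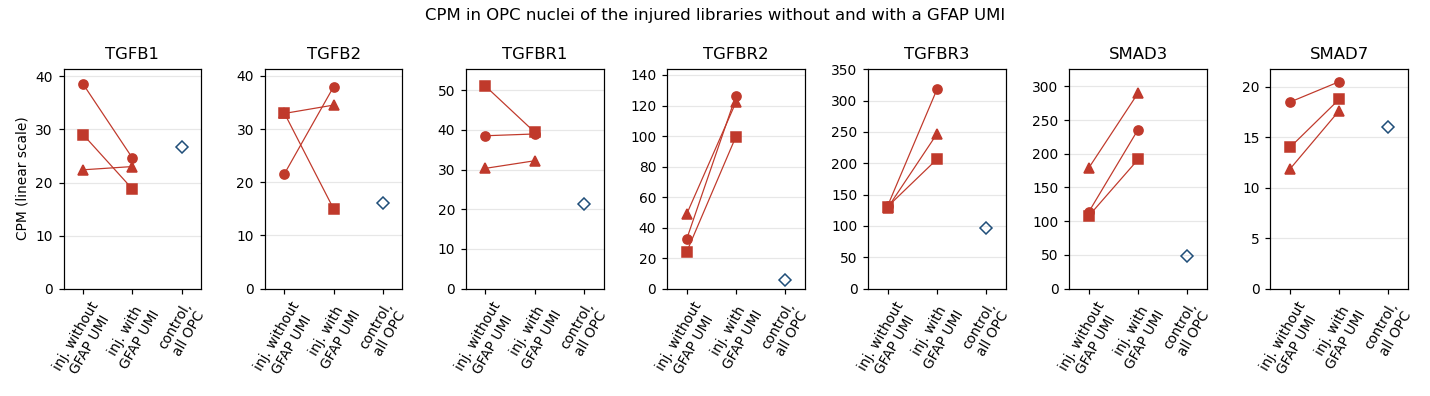
CPM (vertical axis, linear) of each gene in the OPC nuclei of each injured library without and with a GFAP UMI, joined by lines, and in all control OPC nuclei (blue diamond). TGFBR2, TGFBR3 and SMAD3 rise from left to right in each of the 3 libraries, and the control lies below both for these genes.

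The share of nuclei with a UMI depends on depth, which was lower in the control. Counted over all UMIs, the injured mean was above the control in 44 of 49 pairs. With each nucleus thinned to 1000 UMIs, and nuclei under 1000 UMIs left out, it was above in 27 of 49 pairs. TGFB1 in ExN shows the effect of depth, with 14.3 ± 1.93% of injured nuclei and 13.4% of control nuclei (exact 95% interval 12.5 to 14.3%) before thinning, and 2.51 ± 0.501% and 5.14% after it. TGFB1 in Microglia turned over as well, from 36.0 ± 5.05% against 24.8% before thinning to 14.2 ± 0.671% against 35.1% after it. The control share there went from 32 of 129 nuclei to 13 of 37. Thinning cannot raise the share of the same nuclei, so this rise comes from the nuclei left out. In both classes the order after thinning is that of the CPM.

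The lower shares of TGFBR3 in Endo and TGFB2 in Microglia were seen at equal depth too. Injured Endo nuclei held TGFBR3 in 17.9 ± 1.88% and control ones in 63.5% (56.1 to 70.6%) of cases, and after thinning in 11.7 ± 1.06% and 71.8%. Injured Microglia nuclei held TGFB2 in 11.8 ± 1.82% and control ones in 48.1% (39.2 to 57.0%) of cases, and after thinning in 6.14 ± 0.656% and 43.2%. Thinning left 85 control Endo nuclei and 37 control Microglia nuclei. In the opposite direction, SMAD3 in Microglia was detected in 27.7 ± 5.99% against 13.5% of thinned nuclei, TGFBR1 in Microglia in 15.5 ± 3.34% against 5.41%, and TGFBR3 in OPC in 16.3 ± 0.828% against 7.50%. For comparison, in ExN, the class with the lowest TGFBR3 level after injury, the gene was detected in 0.738 ± 0.163% of thinned injured ExN nuclei (median depth before thinning 5949 UMIs) and 0.951% of control ones (2678 UMIs). TGFBR3 was uneven over the ExN clusters, from 0 to 19.0 CPM in the control, and whether its share in ExN is background was not tested.

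**Figure D5:**
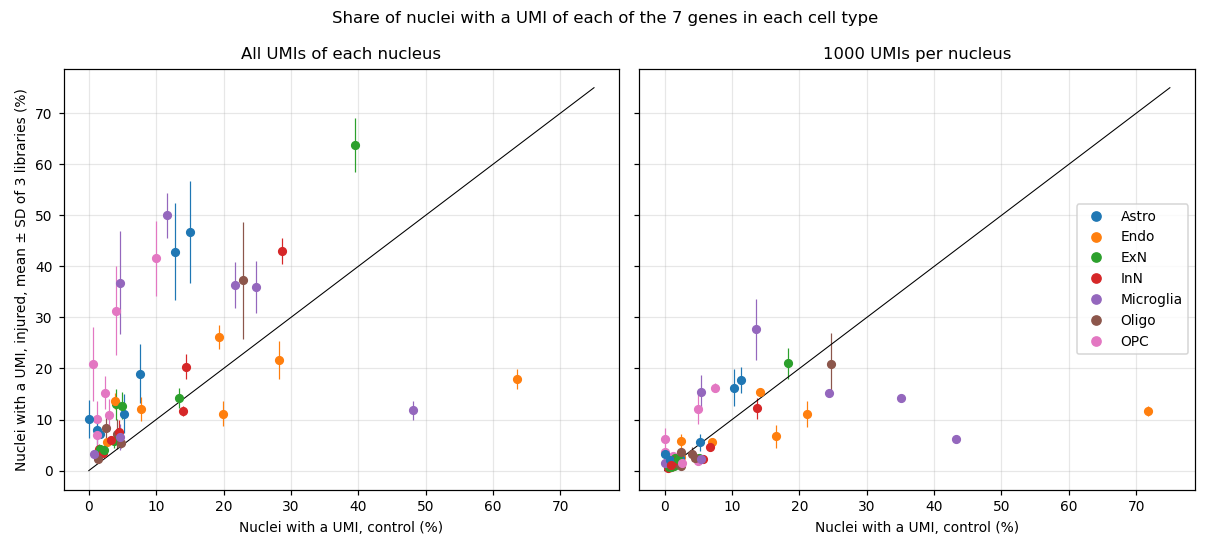
Share of nuclei with a UMI in the injured libraries (vertical axis, mean ± SD of 3) against the control (horizontal axis) for the 49 pairs, coloured by cell type, with all UMIs (left) and 1000 UMIs per nucleus (right). The line marks equal shares. On the left 44 of 49 points lie above it and on the right 27 of 49, and TGFBR3 in Endo and TGFB2 in Microglia lie far to the right in both.

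The sources of each transcript also differed by cohort, and so did class sizes and the levels within classes given above. Microglia were 26.2% of injured nuclei and 1.498% of control nuclei, and their nuclei held 47.2 to 69.0% of all TGFB1 UMIs, 51.2 to 80.9% of TGFBR1 UMIs and 48.6 to 74.3% of TGFBR2 UMIs in the injured libraries. In the control the same shares were 3.97%, 2.37% and 12.1%, and ExN nuclei held 71.1% of TGFB1 UMIs and 80.4% of TGFBR1 UMIs. Over all nuclei of a library, TGFBR2 was at 74.3, 52.2 and 61.0 CPM after injury and 10.5 CPM in the control, and TGFBR1 at 88.4, 39.6 and 57.1 CPM against 12.96 CPM, values that take in both the mix of classes and the levels within them.

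The other genes of the pathway were read from lists of ligands and their activation, receptors and co-receptors, SMADs and regulators, target genes and microglia genes that depend on the pathway. Of the 72 listed names 62 were in both tables, which gave 395 tested pairs of gene and cell type, and 7 were called higher and 4 lower. These 11 calls were 2.78% of the pairs, beside 2.35% of all pairs of gene and cell type (2126 of 90333), so the lists together were called at about the rate of all genes. The integrin subunit ITGB6 was not listed in the control and gave no tested pair. The 81 pairs of ligands and activation genes, among them the latency proteins LTBP1 to LTBP4 and the integrin subunits ITGAV, ITGB5 and ITGB8, held no call. With genes at 0 control UMIs set to their bound, or left out where no fold could be given, their median log2 fold change was 0.25 in ExN and InN, 0.45 in Astro, 0.54 in Endo, 0.58 in OPC and 0.59 in Oligo, and -0.92 in Microglia, beside 0.42 over all genes in Microglia and 0.00 to 0.26 in the other classes. Genes left out were 5 of 14 in Microglia, 4 of 11 in OPC and 2 of 13 in Endo. As fitted with all genes, the median was 0.14 in Microglia, 1.42 in OPC and 0.62 in Endo, so that the sign in Microglia depends on the genes at 0 control UMIs, which the median over all genes includes.

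Receptors held 3 calls in 81 pairs (3.70%), 2 in Endo and 1 in ExN, where 6.18% and 3.85% of all genes were called. ENG, or endoglin, a co-receptor of endothelial cells, was higher in Endo at 278, 329 and 384 CPM against 78.4 CPM (log2 fold change 2.21 ± 0.357, adjusted p 0.00447). BMPR1A, a receptor for bone morphogenetic proteins, was lower there at 86.7, 97.3 and 92.8 CPM against 240 CPM (-1.24 ± 0.230, 0.00757). ACVR1B, a type I receptor for activin, was higher in ExN at 122, 107 and 108 CPM against 69.5 CPM (0.81 ± 0.124, 0.00715). The injured libraries lay close to each other and clear of the control for all 3 genes. The Endo values carry the difference in make-up given above, and its part was not tested. The median log2 fold change of the receptor list, by the same rule, was 0.33 in Astro, 0.54 in Endo, 0.56 in ExN, 0.23 in InN, 1.07 in OPC (1.23 as fitted) and 0.0022 in Oligo, and -0.44 in Microglia, where it was -0.30 as fitted with the gene at 0 control UMIs.

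The SMADs and regulators held 1 call in 90 pairs, NEDD4L in Endo, a ubiquitin ligase that acts on activated SMADs, at 272, 352 and 284 CPM against 103 CPM (log2 fold change 1.69 ± 0.327, adjusted p 0.00918). The list's median log2 fold change in Endo was 0.20, beside 0.26 over all genes. The microglia genes held 1 call in 53 pairs, and it was outside Microglia. MERTK, a receptor for the uptake of dying cells that astrocytes also express, was lower in Astro at 461, 482 and 514 CPM against 1315 CPM (-1.32 ± 0.173, 0.00556). In Microglia the median of that list was -1.65, and -1.73 with the gene at 0 control UMIs left out, beside 0.42 over all genes. The Microglia class held different clusters in the injured and the control cohort, and the part of this was not tested. P2RY12 was at 258 CPM in the injured P2RY12 cluster and 233 CPM in the control cluster. GPR34 (79.7 and 289 CPM), CX3CR1 (29.1 and 233 CPM) and CSF1R (198 and 795 CPM) were lower in that injured cluster.

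Target genes held 6 calls in 90 pairs (6.67%), 4 higher and 2 lower, of which 2 were in Endo, 2 in InN, 1 in ExN and 1 in Astro, where 6.18%, 3.41%, 3.85% and 1.5% of all genes were called. In Endo ID1, a target that dimerizes with transcription factors, was at 432, 451 and 312 CPM against 24.5 CPM (log2 fold change 4.15 ± 0.481, adjusted p 0.00113), and TAGLN, a smooth muscle gene, had 1359 injured UMIs and 1 control UMI, a ratio of 25.0 with a counting interval of 4.49 to 990. The pericyte and smooth muscle markers, of which 3 of 4 were listed, summed to 660 to 1024 CPM in the injured Endo class and 162 CPM in the control, and the part of this and of the class make-up in these Endo values was not tested. In Astro ITGA5, an integrin subunit that binds fibronectin, had 702 injured UMIs and 1 control UMI, a ratio of 68.3 with an interval of 12.2 to 2699. POSTN, a matrix protein, was higher in InN (1.19 ± 0.200, 0.00488). ACTA2, smooth muscle actin, was lower in both classes of neurons, with log2 fold changes of -0.88 ± 0.121 in ExN (0.00506) and -1.40 ± 0.195 in InN (0.00198), at levels of 26.0 to 94.9 CPM after injury. By the same rule, the list's median log2 fold change was 1.02 in Astro, 1.47 in Endo, 1.84 in ExN, 1.48 in InN, 1.92 in Microglia, 1.82 in Oligo and 0.70 in OPC, beside 0.00 to 0.42 over all genes. Many of these genes passed the filter on low counts through the injured libraries alone, so the medians are a description. Genes at 0 control UMIs were 9 of 14 in Microglia, all of them left out, 9 of 12 in OPC, with 3 left out, 5 of 11 in Oligo, 4 of 12 in Astro, 2 of 13 in InN and 2 of 14 in Endo, with 1 left out.

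The genes most like each member were taken as the 3 with the highest Pearson correlation of log2(CPM + 1) over the 21 injured sums of library and class, among 10333 genes with a mean of at least 10 CPM. The sums of a library share its depth and preparation, so these are descriptions. TGFBR2 was most like FLVCR2, SEC11A and ELK3 (r of 0.973, 0.965 and 0.965) and TGFBR1 most like PSTPIP1, MAPKBP1 and ARPC2 (0.966, 0.947 and 0.946). TGFB1 was most like SULT1C2, NR1H3 and AOAH (0.955, 0.953 and 0.952), and TGFBR3 most like EYA1, TUBA1A and MINDY1 (0.944, 0.940 and 0.940). SMAD3 was most like SEPT9, CCDC34 and TMEM164 (0.920, 0.917 and 0.914). TGFB2 had lower values, with ADM, CPVL and an unnamed gene (0.872, 0.855 and 0.855), and so had SMAD7, with RGS3 the highest named gene (0.896). Between members the highest value was that of TGFB1 and TGFBR1 (0.765) and the lowest that of TGFBR3 and SMAD3 (-0.544), with TGFBR1 and TGFBR2 at 0.703. Within single injured Microglia nuclei thinned to 1000 UMIs, TGFBR1 was detected in 20.6, 8.67 and 14.5% of the nuclei with a TGFBR2 UMI and in 17.5, 12.2 and 17.1% of those without, with no common direction over the 3 libraries.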

How the data were processed

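V1 nuclei of 3 injured marmosets (1 library each) and of 3 pooled control marmosets (1 library) were analysed. Per the labels and the study's methods, the authors counted UMIs in each nucleus for each gene with Cell Ranger 3.1.0 on calJac3 with an Ensembl annotation. Scrublet was used on doublets of injured nuclei only, and Seurat to filter control nuclei by gene number. They clustered each cohort separately and named the clusters. These deposited counts carry no normalization, and no doublet caller was run again. The totals per nucleus were checked against the counts.

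UMIs were summed per library and class, and the genes common to the injured and control table were tested with edgeR 4.0.16 in R 4.3.3 (TMM, filterByExpr, glmQLFit, glmQLFTest) and Benjamini-Hochberg adjustment over all genes tested in that comparison. SE is the log2 fold change divided by the square root of F. P-values of the fits within a class measure the spread between 3 injured animals, or fewer where a library was left out. Those of the fits with library as a block measure the spread left between class sums of the injured animals, and the control library adds none. Steps were tested on simulated counts. Alternatives were library size scaling, RLE factors, DESeq2 1.42.0, no filter on low counts, thinning to 1000 UMIs, unlisted control genes as 0, nuclei with at most 2500 genes and each injured library left out. Shares have exact Clopper-Pearson 95% intervals, which cover counting error only. Figures and other steps used Python 3.11.15 and matplotlib 3.10.9. Genes were named as all 7 members, the 3 genes most like each, and listed pathway genes that were called. The members and lists were chosen with earlier results of these data known. Injured replicates 1, 2 and 3 are F1619, F1565 and F1711. No sequences are shown.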

Additional observations from a re-analysis of the deposited data

Results flagged for a closer look

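The injury effect differed between cell types, by the test of the difference itself, for 4 pairs. Against the mean of the other 6 classes, TGFB2 in Microglia differed by -3.67, TGFBR3 in Endo by -2.62, TGFB2 in Endo by -1.67 and TGFBR2 in Endo by -3.06 on the log2 scale. The TGFBR2 value rests on Astro and OPC, with 0 and 1 control UMIs. With those classes left out it was -0.74 (adjusted p 0.119 in edgeR's quasi-likelihood test), and it also missed the limit without injured replicate 1 (0.0341) or replicate 3 (0.0166). TGFB2 in Endo missed it with those classes left out (-1.15, 0.0444) and without replicate 2 (0.0347). The Endo class held different clusters in the injured and control cohorts, and within its LAMA2 clusters the injury effect was -0.73 ± 0.254 for TGFBR3 and -0.19 ± 0.402 for TGFB2, against -2.51 and -1.89 over the class. The Microglia class also held different clusters by cohort. Within its GPR34 clusters, chosen after seeing the data, the injury effect was -2.11 ± 0.233 for TGFB2, against -3.68 over the class. No group had the number of samples for which single libraries are screened.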

How the results depend on the processing

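Of 508 values for single pairs of gene and cell type under the alternatives, 455 kept their direction and side of the limit, 19 passed where they had not, 9 no longer passed and 25 changed direction. Against 3 pairs called, DESeq2 called 5 (adding TGFB2 in Microglia and in Endo and TGFBR1 in ExN, without TGFB1 in InN), an adjusted p below 0.05 gave 7, and leaving out 1 injured library gave 2 to 11, the highest without replicate 2, when SMAD3, TGFBR2 and TGFBR3 in OPC, SMAD3 and TGFBR2 in Astro, TGFB2 in Endo and in Microglia and TGFBR1 in Microglia were added. The TGFB1 calls were lost after thinning in ExN (adjusted p 0.0117) and InN (0.0102), with at most 2500 genes in ExN (0.0447) and with DESeq2 in InN (0.0259). The causes were not tested. Effects that differed from the other classes numbered 4, and 2 with Astro and OPC left out, a choice made after seeing the data, where TGFB2 in Endo had an adjusted p of 0.0444. Scaling by library size moved the all-gene median (log2) by over 0.1 in every class other than Oligo, from 0.26 to 0.14 in Endo, 0.42 to 0.17 in Microglia and 0.00 to -0.11 in ExN, and turned the genes called from 393 higher and 189 lower to 263 and 264 in ExN, from 285 and 158 to 248 and 273 in InN, from 140 and 47 to 138 and 101 in Astro and from 553 and 263 to 355 and 264 in Endo. The values that changed direction were all of pairs not called. With library size scaling they were SMAD3 in InN -0.0125, TGFB2 in InN -0.0012, TGFBR1 in Oligo -0.0436 and TGFB1 in OPC -0.0384. After thinning they were TGFBR3 in Astro 0.24, TGFB1 in Astro 0.0815, SMAD3 in Endo 0.70, TGFB2 in InN -0.33, TGFBR3 in Microglia 7.97, TGFBR2 in Microglia 0.0423 and TGFB1 in OPC -1.16. With at most 2500 genes per nucleus they were TGFB1 in Astro 0.0361 and TGFBR3 in Microglia 0.25. In the clusters chosen after seeing the data they were SMAD7 -0.11, TGFBR2 0.98 and TGFB2 9.23 (0 control UMIs) in the FLT1 clusters, TGFBR2 0.17 in the GPR34 clusters, and SMAD3 0.76 and TGFB1 0.27 in the LAMA2 clusters. With 1 injured library left out, values ran from -0.21 to 0.0649 for TGFB1 in Astro, -0.22 to 0.42 for TGFBR3 in InN, -0.0635 to 0.16 for TGFBR1 in Oligo, -0.26 to 0.17 for TGFBR3 in Oligo, -0.0221 to 0.43 for TGFB2 in Oligo and -0.0278 to 0.16 for TGFB1 in OPC. No paired analysis was possible because the control is 1 library with 1 replicate number. Control depth limits the values of the 13 pairs with fewer than 10 control UMIs.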
